A study of Mus musculus with 35 samples.

Results

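The 8 genes that led the comparison of IAMP-KO with heterozygous mouse hearts were followed through single hearts and through cultured cardiac fibroblasts (CFs). These are Hpgds, Heg1, Prn, Clk1, Stox1, Klf15, Mapt and Fyb, 8 of the 55487 genes in each table. They were selected on the heart comparison itself. Hpgds, Prn, Heg1, Clk1, Stox1 and Klf15 had the 6 lowest p values of all genes, in that order, and Plin4 came next. Mapt (rank 53) and Fyb (rank 40) were taken for calls in single settings. Both passed the test when 1 particular heart was left out, and Fyb also passed with DESeq2, another test, on all hearts. The heart values of all 8 genes are therefore a description, and no test is drawn from them. The fibroblast tables were not used to choose them and were tested.

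IAMP is a micropeptide encoded by 4930523C07Rik and enriched in CFs, and the study asked what its loss does to the heart and to CFs. The hearts came from mice of the C57BL/6 strain aged 8 weeks, without surgery or treatment, 4 labelled Het and 4 labelled KO. The KO allele is a frameshift made with CRISPR-Cas9 in fertilized eggs, and the KO mice come from that mouse line. The controls were heterozygotes, so every heart in the comparison carried at least 1 mutant allele and no wild-type heart is among them. The CFs were isolated from adult mice and given 1 of 3 siRNAs, a scrambled control (Scrambled) or IAMP-siR-1 or IAMP-siR-2 against IAMP (siR-1 and siR-2 from here), with 3 libraries in each group. They were left untreated, given IL-17 for 24 h after 24 h of siRNA, or given TGF-β. Times for the untreated and TGF-β cells are not in the labels. Nothing in the labels says whether the 3 libraries of a group are separate isolations, so their p values measure the spread between libraries, which may be technical.

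The 8 genes have different jobs. Hpgds is the hematopoietic prostaglandin D synthase, which turns prostaglandin H into prostaglandin D in mast cells, macrophages and other cells. Heg1 is a transmembrane receptor of endothelium and endocardium that binds KRIT1 of the cerebral cavernous malformation (CCM) complex and is needed for heart and vessel development. Klf15 is a zinc-finger transcription factor that is abundant in heart, responds to glucocorticoids and the circadian clock, and restrains cardiac hypertrophy and fibrosis. Clk1 is a kinase that phosphorylates SR splicing factors. Mapt is the microtubule-binding protein tau, best known from neurons. Fyb (ADAP) is an adaptor of T cells, platelets and myeloid cells that links receptor signals to integrins. Stox1 is a winged-helix DNA-binding protein. Prn is a gene model that starts at the promoter of the prion protein gene Prnp and runs on into Prnd, the gene of the related protein doppel.

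Heg1, Klf15 and Hpgds were the members that passed a test in the main fits of the CF data, and their promoters are shown for that reason. The windows are from RefSeq (build GRCm38.p6), hold 250 bases before and 50 bases from the transcription start, and run 5′ to 3′ along the gene. Capitals mark ACGTG on either strand, the core of the hypoxia response element that HIF-1 binds, chosen because the study is about HIF-1α. Where the capitals read CACGTG, a palindrome known as an E-box, the core lies on both strands at once and the sites overlap.
Heg1, plus strand, chr16:33684216-33684515: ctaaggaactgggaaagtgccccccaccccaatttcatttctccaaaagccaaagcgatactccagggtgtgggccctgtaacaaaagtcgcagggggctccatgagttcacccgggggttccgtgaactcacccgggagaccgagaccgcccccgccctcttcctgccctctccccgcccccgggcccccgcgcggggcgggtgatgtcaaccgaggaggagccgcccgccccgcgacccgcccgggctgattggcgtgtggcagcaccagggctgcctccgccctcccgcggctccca
Klf15, plus strand, chr6:90462326-90462625: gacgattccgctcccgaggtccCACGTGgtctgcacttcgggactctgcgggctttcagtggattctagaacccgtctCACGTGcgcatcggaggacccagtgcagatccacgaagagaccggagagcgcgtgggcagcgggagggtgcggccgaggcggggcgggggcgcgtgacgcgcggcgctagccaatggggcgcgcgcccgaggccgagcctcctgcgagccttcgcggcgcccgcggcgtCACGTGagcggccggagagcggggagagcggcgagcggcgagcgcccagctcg
Hpgds, minus strand, chr6:65144681-65144980: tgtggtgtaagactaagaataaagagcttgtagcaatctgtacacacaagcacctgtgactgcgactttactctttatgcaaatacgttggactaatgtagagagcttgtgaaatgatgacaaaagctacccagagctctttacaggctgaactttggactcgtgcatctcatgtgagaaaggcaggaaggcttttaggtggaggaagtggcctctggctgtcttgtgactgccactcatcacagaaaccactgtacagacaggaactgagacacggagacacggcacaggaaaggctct

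Of the 8 members, 6 had such a window, and Clk1 and Mapt had none in the table. The HIF core was found in the Klf15 window alone, where all of its sites lie in the 3 E-boxes, starting 228, 172 and 3 bases before the transcription start. Of 32851 promoter windows of the same length, 19.6% held the HIF core and 7.15% held the E-box. CACCC, the core that Krüppel-like factors bind, occurred 5 times in the Heg1 window, 1 time in those of Klf15 and Fyb, 2 times in those of Prn and Stox1, and not in that of Hpgds. It occurred in 57.5% of all windows, with a median of 1 site. The windows of Klf15, Stox1 and Heg1 were rich in G and C, at 73.3%, 70.3% and 69.0%, and those of Hpgds and Fyb were at 46.7% and 42.0%, against a median of 52.7%.

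The labels were checked first. The IAMP gene stood at 15.9 to 18.8 CPM (counts relative to the library total after TMM scaling) in Het hearts and at 15.2 to 17.3 CPM in KO hearts. A frameshift need not lower the transcript, so this gene does not check the genotype labels. In CFs it fell in all 6 comparisons with Scrambled, with log2 fold changes from −3.69 to −2.23. Hearts held 23497027 to 23857313 counts, and CF libraries 104139670 to 119232309 estimated counts, in which a single read pair is worth about 6. All 12 cardiomyocyte markers were detected in hearts (57680 to 62910 CPM in sum), and all 10 fibroblast markers in CFs (11400 to 21090 CPM). The cardiomyocyte markers summed to 3.79 to 98.9 CPM in CFs.

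No gene passed an adjusted p of 0.05 in the hearts, neither a member nor any other (0 of 16675 tested, 0%, p adjusted after Benjamini and Hochberg in edgeR). An unadjusted p below 0.05 was reached by 601 genes. DESeq2 called 5 genes, of which Heg1, Fyb and Clk1 are members. All 8 members passed the filter on low counts. In all 8 the CPM of the 4 KO hearts did not overlap those of the 4 Het hearts, a pattern that 395 of the 16675 genes (2.37%) showed. Since the members were picked from this comparison, nothing is read from that count. Hpgds, Heg1, Prn and Mapt were lower in KO hearts, and Clk1, Klf15, Stox1 and Fyb were higher.

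Hpgds (ENSMUSG00000029919, GRCm38 chr6:65117293-65144908, minus strand) had the lowest p value of all genes and also one of the lowest levels. Its counts were 22, 21, 20 and 19 in the Het hearts and 8, 5, 6 and 7 in the KO hearts. The level was 0.861 ± 0.0742 CPM in Het (SD, n = 4) and 0.277 ± 0.0602 CPM in KO hearts (SD, n = 4). The log2 fold change was −1.62 (standard error 0.217) and ran from −1.75 to −1.51 with each heart left out in turn. The highest KO heart held 8 counts and the lowest Het heart 19, so the groups did not overlap, and the difference rests on few reads per heart. At such counts, counting error alone is expected to exceed the SDs and the standard error given. Choosing by low p value favours genes with little spread, so these values and the left-out range say little about the variation between hearts. Mast cell markers summed to 25.5 to 33.7 CPM in Het and 29.8 to 37.0 CPM in KO hearts, with Fcer1a and Ms4a2 at 0 in all 8, and macrophage markers to 201 to 227 and 184 to 227 CPM. Both lists overlapped between the genotypes.

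Heg1 (ENSMUSG00000075254, GRCm38 chr16:33684370-33771576, plus strand) had the highest CPM of the members that were lower in KO hearts, without correction for length. It stood at 93.6, 86.9, 96.2 and 112 CPM in the Het hearts and at 39.0, 57.9, 41.0 and 55.9 CPM in the KO hearts. The lowest Het heart was 28.9 CPM above the highest KO heart, and the KO hearts fell into a lower and a higher pair. The log2 fold change was −1.003 (standard error 0.142), with −1.10 to −0.91 when each heart was left out. Summed endothelial markers were at 1196 to 1359 CPM in Het and 1244 to 1369 CPM in KO hearts. In bulk tissue, fewer cells of a type and less RNA per cell cannot be told apart, here or for the other members. The antisense gene Gm15657 shares 318 exonic bases with Heg1 and reached 6.17 CPM in 1 KO heart, against at most 0.712 CPM in the Het hearts. The strand setting of the counting is not stated, so reads of that overlap cannot be told apart.

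Mapt (ENSMUSG00000018411, GRCm38 chr11:104231390-104332090, plus strand) was lower in KO hearts, but 1 Het heart stood with them. Its levels were 25.4, 77.1, 72.8 and 78.3 CPM in the Het hearts and 21.8, 24.9, 20.4 and 24.7 CPM in the KO hearts. The Het heart with 25.4 CPM (heart a) lay 0.537 CPM above the highest KO heart, and the other 3 lay far above it. With all hearts the log2 fold change was −1.47 (standard error 0.352). Without Het heart a it was −1.73, the setting for which Mapt was picked. Markers of glia and neurons summed to 14.98 to 19.84 CPM in Het and 15.2 to 18.2 CPM in KO hearts, and the downstream neighbour Kansl1 stood at 28.9 to 38.6 and 30.9 to 35.8 CPM.

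Prn (ENSMUSG00000098754, GRCm38 chr2:131909957-131956130, plus strand) fell between the others in level. The Het hearts held 72, 72, 65 and 93 counts and the KO hearts 45, 40, 46 and 38 counts. This gave 3.16 ± 0.410 CPM in Het (SD, n = 4), 1.79 ± 0.153 CPM in KO hearts (SD, n = 4) and a log2 fold change of −0.82 (standard error 0.129). Of its 3370 exonic bases in GENCODE vM21, 3122 are shared with Prnd and 145 with Prnp, both on the same strand, and how the counting split such reads is not stated. Prnd itself was at 0 to 0.340 CPM in Het and 0 to 0.0431 CPM in KO hearts. Prnp, which encodes the prion protein, stood at 94.3 to 99.0 CPM in Het and 87.0 to 108 CPM in KO hearts. With Prn and Prnp summed, an alternative added after the values were seen, the log2 fold change was 0.02. Prnp held 2117 to 2475 counts per heart, so this sum follows Prnp and cannot check the direction of Prn. A sum with Prnd was not made. The direction given for Prn rests on reads assigned to that gene model.

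Clk1, Klf15 and Stox1 were higher in KO hearts. They were chosen for low p values in this comparison, which favours genes with little spread within each genotype, so nothing is read from their spread. Clk1 (ENSMUSG00000026034, GRCm38 chr1:58410189-58424066, minus strand) stood at 51.2, 48.5, 51.3 and 46.6 CPM in Het and at 60.2, 60.0, 59.8 and 59.0 CPM in KO hearts. The lowest KO heart was 7.71 CPM above the highest Het heart, and the 4 KO hearts lay close together. Klf15 (ENSMUSG00000030087, GRCm38 chr6:90462576-90475238, plus strand) stood at 76.3, 74.1, 80.4 and 70.0 CPM in Het and at 90.8, 92.4, 92.9 and 84.4 CPM in KO hearts, with a gap of 4.05 CPM. The log2 fold changes were 0.27 for Clk1 (standard error 0.0451) and 0.26 for Klf15 (standard error 0.0532), which is a rise of 21% and 19.9% in the means.

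Stox1 (ENSMUSG00000036923, GRCm38 chr10:62659043-62726128, minus strand) had 10, 9, 10 and 10 counts in the Het hearts and 18, 19, 20 and 22 counts in the KO hearts. The mean was 0.409 ± 0.0152 CPM in Het (SD, n = 4) and 0.839 ± 0.0751 CPM in KO hearts (SD, n = 4), and the log2 fold change was 1.03 (standard error 0.181). No heart of either genotype held more than 22 counts, and the groups did not overlap. At such counts, counting error alone is expected to exceed these SDs, so they say little about the variation between hearts. With each heart left out, the log2 fold change ran from 0.96 to 1.06 for Stox1, from 0.25 to 0.29 for Clk1 and from 0.23 to 0.29 for Klf15.

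Fyb (ENSMUSG00000022148, GRCm38 chr15:6522853-6663313, plus strand) had the largest log2 fold change of the 8 members, and it was carried by 3 of the 4 KO hearts. The counts were 36, 50, 36 and 47 in the Het hearts, and 51, 672, 727 and 670 in the KO hearts. In CPM, the 3 high KO hearts lay between 28.4 and 29.9, and the remaining KO heart (heart a) at 2.22 stood beside the highest Het heart at 2.18. The fitted log2 fold change was 3.65 (standard error 0.816) with all hearts and 4.03 without KO heart a. Fyb passed the test in that setting and in DESeq2 on all hearts, and such calls are how it was picked. T, B and NK cell markers summed to 6.41 to 8.18 CPM in Het and to 15.9, 6.80, 5.96 and 2.59 CPM in KO hearts a to d, with Ncr1 at 0 in all 8. Platelet markers summed to 9.45 to 10.7 CPM in Het and to 10.1, 13.1, 14.7 and 10.4 CPM in KO hearts a to d. None of the 5 platelet markers tested passed in edgeR, 2 had an unadjusted p below 0.05, all 5 were on the higher side in KO hearts, and their median log2 fold change was 0.66. The part of such cells in the Fyb values was not tested.

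The transcribed pseudogene Gm7666 overlaps Fyb on the same strand and shares 231 exonic bases with it. Gm7666 stood at 47.0 to 54.2 CPM in Het and 39.5 to 46.2 CPM in KO hearts, which did not overlap. It held 1108 to 1294 counts in Het and 962 to 1062 counts in KO hearts, more than Fyb in every heart. Summed counts of both were 1144 to 1330 in Het hearts, 1113 in KO heart a and 1662 to 1689 in the other 3 KO hearts. The sum was thus still higher in those 3 hearts than in any Het heart, while its log2 fold change over all hearts was 0.30. How reads of the shared bases were divided is not stated.

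**Figure D1:**
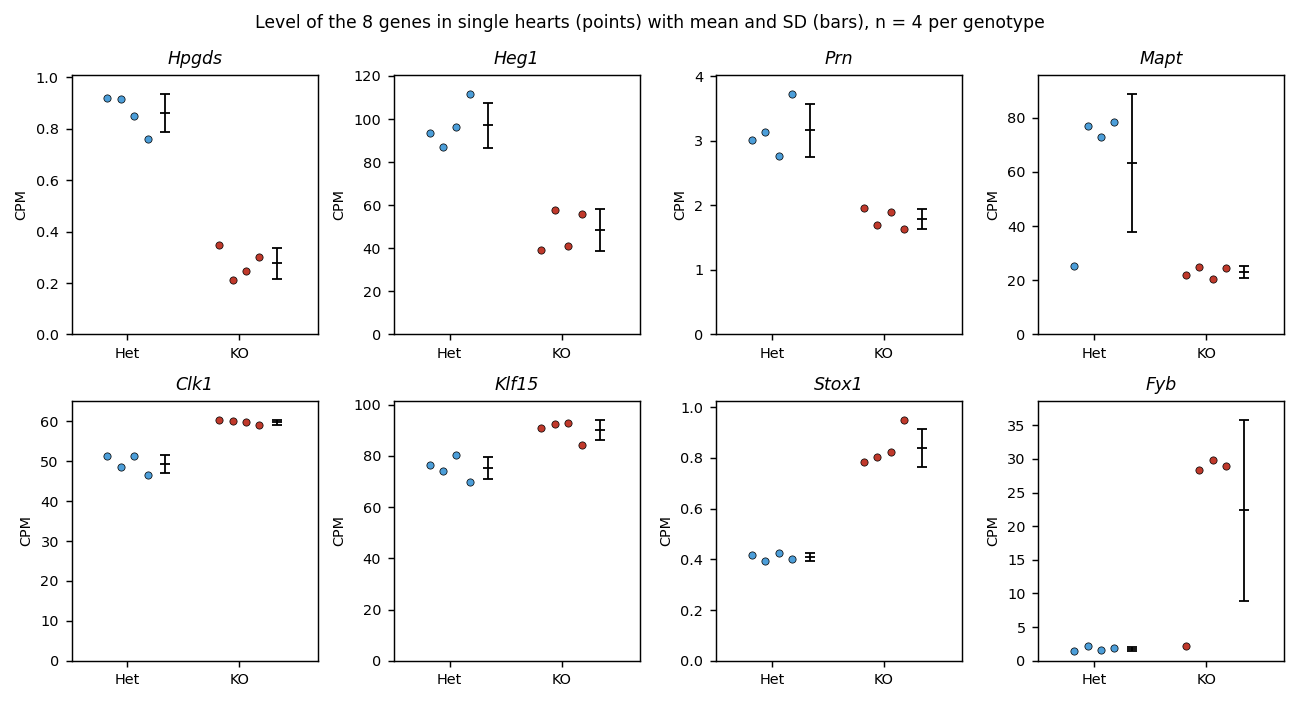
CPM (vertical axes, linear, from 0) of the 8 genes in each of the 4 Het (blue) and 4 KO hearts (red), with the mean and SD beside the points. The groups do not overlap in any panel, but 1 Het heart (25.4 CPM) lies beside the KO hearts for Mapt and 1 KO heart (2.22 CPM) beside the Het hearts for Fyb.

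**Figure D2:**
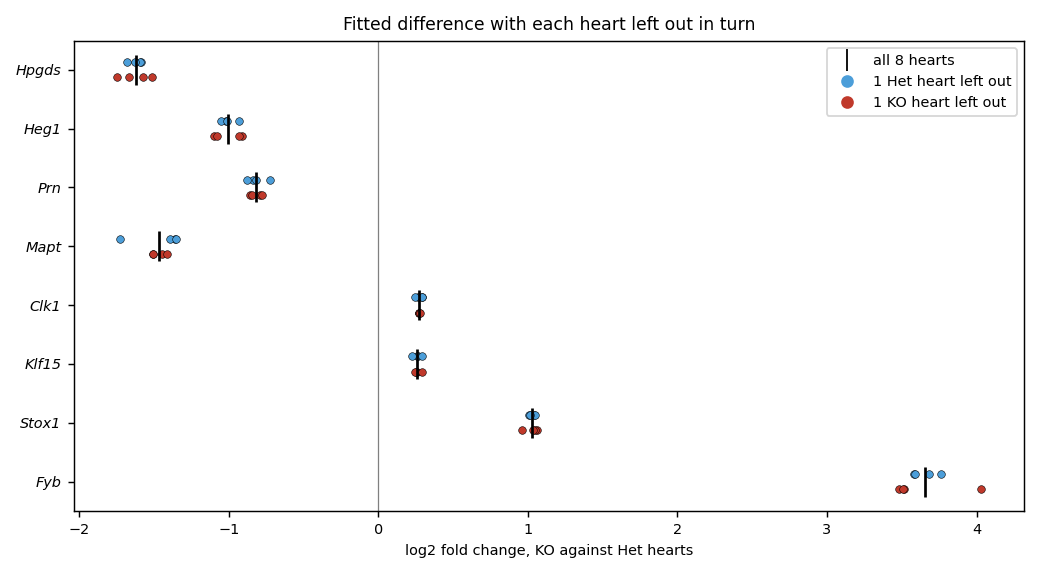
Fitted log2 fold change of KO against Het hearts (horizontal axis) with all 8 hearts (black bars), with 1 Het heart left out (blue points) and with 1 KO heart left out (red points). The values of Clk1 (0.25 to 0.29) stay together, whereas those of Mapt (−1.73 to −1.35) and Fyb (3.48 to 4.03) each have 1 point apart from the others.

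**Figure D3:**
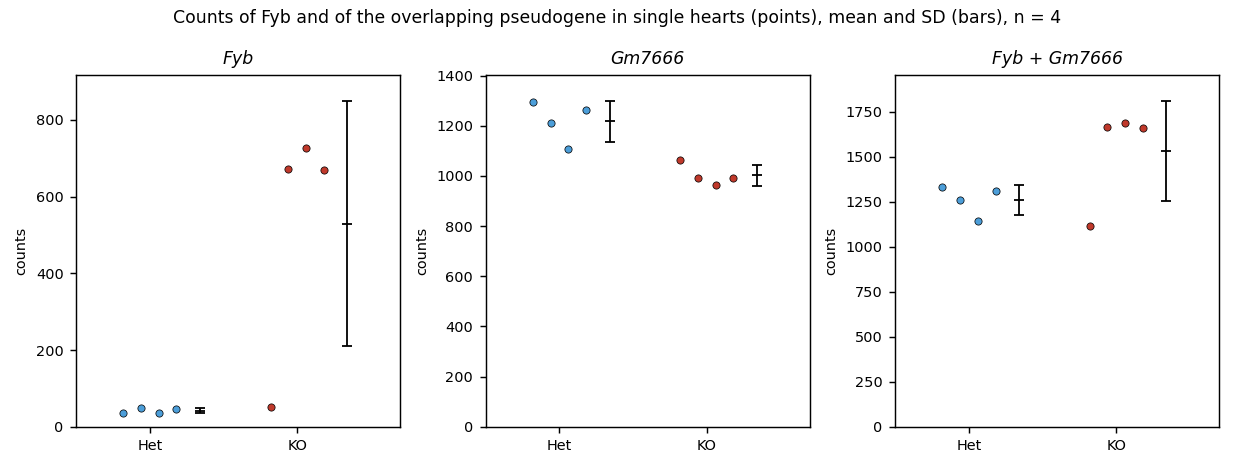
Counts (vertical axes, linear, from 0) of Fyb, of the overlapping pseudogene Gm7666 and of their sum in single Het (blue) and KO hearts (red), with mean and SD. Fyb has 670 to 727 counts in 3 KO hearts and 51 in the other, and the sum keeps the same split among KO hearts.

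Correlations between members across the hearts had both signs. Most members were picked for low p values, which favours little spread within a genotype, and Hpgds and Stox1 held few counts. Whether the members vary together therefore cannot be told from these values. After the mean of each genotype was taken out, Pearson's r between members over the 8 hearts ran from −0.70 (Prn and Clk1) to 0.83 (Clk1 and Klf15). For each member, the 2 genes that followed it most closely were picked from 14460 genes at 1 CPM or more on average, on log2 CPM with a pseudocount of 0.5. They were Rab20 and Car11 for Hpgds (r = 0.987 and 0.972), Zfp451 and Gm12840 for Heg1 (both 0.963), and Ube2o and Gm12623 for Prn (0.960 and 0.955). For Clk1 they were Mrps36-ps2 and 5031425E22Rik (both 0.980), for Stox1 Sh3tc2 and Cbx1 (0.983 and 0.976), and for Klf15 Ntf3 and Fam45a (0.993 and 0.975). For Mapt they were Ap4b1 and Fsd1l (0.993 and 0.992), and for Fyb Ankrd49 and Slc10a3 (both 0.994). Each r rests on 8 hearts, 1 of which stood apart for Mapt and 1 for Fyb, and is a description. The highest of 14460 values over 8 hearts is large even where genes are unrelated, so no relation is read from them.

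The levels of the members relative to each other differed between hearts and CFs. Per kilobase of exon (GENCODE vM21), the order in Het hearts was Klf15 (26.9 CPM per kb), Mapt (8.42), Heg1 (7.63), Clk1 (6.07), Prn (0.937), Fyb (0.329), Hpgds (0.134) and Stox1 (0.111). Only Mapt and Heg1 overlapped as neighbours in this order, because of Het heart a. In untreated Scrambled CFs the order was Heg1 (25.4 CPM per kb), Clk1 (8.0), Klf15 (1.69), Stox1 (0.249), Fyb (0.243), Prn (0.141), Hpgds (0.119) and Mapt (0.0168), and the values of Stox1, Fyb, Prn and Hpgds overlapped from neighbour to neighbour. Tissue, culture and the kind of count (whole-number counts in hearts, estimated counts in CFs) cannot be told apart here, and no test was made.

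In CFs the question is whether a knockdown of IAMP moved the same genes. All 8 members passed the filter in each table. In untreated CFs, 3 members passed the test with siR-1 (39.9% of all genes did) and 1 with siR-2 (49.3%). Under IL-17 these were 1 member for siR-1 (42.3%) and 2 for siR-2 (50.6%), and under TGF-β none with either (23.1% and 29.9%). Both siRNAs are compared with the same Scrambled libraries, so their differences are not independent. In each of the 6 comparisons the share of members called was below that of all genes, with siR-1 in untreated cells only just. With 8 genes such a share moves in coarse steps, and several members were low in CFs, where a call is harder to reach. Nothing is read from these shares. Heg1 was the only member called with both siRNAs of a table.

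Heg1 rose with both siRNAs in untreated and in IL-17-treated CFs. In untreated cells it stood at 316, 348 and 305 CPM with Scrambled, at 712, 667 and 683 CPM with siR-1, and at 932, 922 and 931 CPM with siR-2. siR-1 gave a log2 fold change of 1.09 (standard error 0.0411, adjusted p = 3.45e-12 in edgeR) and siR-2 one of 1.52 (standard error 0.0415, adjusted p = 2.24e-14 in edgeR). Under IL-17 the values were 341, 328 and 358 CPM with Scrambled, 657, 693 and 679 CPM with siR-1, and 970, 912 and 907 CPM with siR-2. For siR-1 the log2 fold change was then 0.98 (adjusted p = 8.03e-13 in edgeR) and for siR-2 it was 1.44 (adjusted p = 3.15e-15 in edgeR). No knockdown library overlapped a Scrambled library in either table. In hearts, Heg1 was lower in the KO group, the opposite direction, and the 2 settings were not tested against each other.

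Under TGF-β Heg1 did not pass the test with either siRNA. The levels were 174, 195 and 132 CPM with Scrambled, 243, 219 and 217 CPM with siR-1, and 139, 147 and 147 CPM with siR-2. siR-1 gave a log2 fold change of 0.44 (standard error 0.138, adjusted p = 0.0711 in edgeR) and siR-2 one of −0.21 (standard error 0.138, adjusted p = 0.343 in edgeR). Every siR-1 library lay above every Scrambled library, whereas the siR-2 libraries overlapped them. The Scrambled library at 132 CPM (replicate 3) bore on both calls. Without it the log2 fold changes were 0.29 (adjusted p = 0.00182 in edgeR, 0.00182 to 0.189 over all fits) and −0.35 (adjusted p = 0.000279 in edgeR, 0.000279 to 0.71 over all fits). With siR-1 the difference also passed without Scrambled replicate 2 (0.57, adjusted p = 0.0221 in edgeR) and in DESeq2 on all libraries (adjusted p = 0.00759).

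The change of the siRNA effect with the stimulus was tested directly, in fits of 6 groups. Between TGF-β and untreated cells, the effect on Heg1 differed by −0.66 with siR-1 (standard error 0.148, adjusted p = 0.00597 in edgeR) and by −1.75 with siR-2 (standard error 0.149, adjusted p = 7.73e-07 in edgeR). Heg1 was the 1 member past this test with either siRNA, where siR-1 had 19.6% of all genes past it and siR-2 had 30.2%. The adjusted p stayed at or below 0.0195 with siR-1 and 1.74e-05 with siR-2 in all 20 fits, but with a limit of 1 on the log2 difference the call with siR-1 was lost. Between IL-17 and untreated cells no member passed, where 2.13% of all genes did for siR-1 and 1.89% for siR-2, and the differences of Heg1 were −0.11 and −0.07. The tables may be separate experiments, so stimulus and experiment cannot be told apart. The IAMP gene itself was lowered less under TGF-β, at −2.23 for siR-1 and at −2.65 for siR-2 (log2 fold change), than in untreated cells, at −2.97 and −3.69 (adjusted p of the differences 0.00113 and 1.7e-05 in edgeR). The part of that difference in the Heg1 result was not tested.

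Endothelial markers were called in both directions. Of 12 such markers, 1 rose and 3 fell with siR-1 in untreated CFs, and 2 rose and 4 fell with siR-2 (39.9% and 49.3% of all genes were called). They summed to 121 to 135 CPM with Scrambled, 107 to 115 CPM with siR-1 and 101.9 to 104.4 CPM with siR-2. Their part in the Heg1 values was not tested. Of the 19 other genes of the CCM pathway, 7 rose and 7 fell with siR-1, and 9 rose and 6 fell with siR-2 (39.9% and 49.3% of all genes were called), with median log2 fold changes of −0.08 and 0.07 against −0.02 for all genes with each. Under IL-17 3 rose and 5 fell with siR-1, while 8 rose and 5 fell with siR-2, and under TGF-β 4 and 6 and then 4 and 5 (all genes 42.3% and 50.6%, then 23.1% and 29.9%). Klf2, a flow-responsive transcription factor downstream of the CCM proteins, was the gene named from this list in each table, by the rule that takes, among genes called with both siRNAs in 1 direction, the largest mean change. It fell from 14.9 CPM to 9.08 and 5.41 CPM in untreated cells (log2 fold changes −0.71 and −1.46, adjusted p = 6.36e-05 and 1.17e-08 in edgeR). In hearts none of the 19 passed, and their median log2 fold change was 0.04 against −0.0011 for all genes.

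The 2 siRNAs differed in what they did to Heg1 and Klf15. In untreated, IL-17 and TGF-β cells, siR-2 against siR-1 gave 2 members past the test in each table, where 45.5%, 46.2% and 24% of all genes passed, and these were Heg1 and Klf15 every time. Heg1 was higher with siR-2 than with siR-1 by 0.43 in untreated cells and by 0.46 under IL-17 (adjusted p = 1.32e-07 and 7.18e-09 in edgeR), and lower by −0.65 under TGF-β (adjusted p = 0.0164 in edgeR). The last call was lost when any of 4 knockdown libraries was left out, siR-1 replicate 1 or any siR-2 replicate, with adjusted p up to 0.0626. The calls in untreated and IL-17 cells were lost with the fold limit of the study.

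Klf15 was higher with siR-2 than with siR-1 in all 3 tables. In untreated cells it stood at 4.73, 4.73 and 4.68 CPM with Scrambled, at 4.04, 3.89 and 3.18 CPM with siR-1, and at 5.02, 6.03 and 5.22 CPM with siR-2. Every siR-1 library was below and every siR-2 library above the Scrambled libraries. Under IL-17 the values were 3.76, 3.98 and 3.76 CPM, then 3.26, 3.37 and 3.22 CPM, then 5.80, 4.36 and 5.71 CPM in the same order, with each group again apart from the others. Under TGF-β they were 9.90, 9.96 and 10.4 CPM, then 8.60, 9.53 and 8.26 CPM, then 13.4, 11.9 and 10.0 CPM, where siR-2 overlapped Scrambled. The log2 difference of siR-2 from siR-1 was 0.55, 0.69 and 0.42 in the 3 tables (adjusted p = 0.00112, 0.00016 and 0.0041 in edgeR), and the adjusted p stayed below 0.05 in all 15 fits of each. With the study's limit on the fold change added, the calls in untreated and TGF-β cells were lost.

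Against Scrambled the differences of Klf15 were smaller and less stable. With siR-1 the log2 fold change was −0.35 in untreated cells (standard error 0.121, adjusted p = 0.0295 in edgeR), which was lost without any 1 of the 3 Scrambled libraries or without siR-1 replicate 3 (adjusted p up to 0.142), and also with the study's limit on the fold change. With siR-2 it was 0.46 under IL-17 (standard error 0.122, adjusted p = 0.00411 in edgeR), a call that the fold limit removed. The other 4 comparisons did not pass, at −0.23 and −0.20 (log2 fold change) for siR-1 under IL-17 and TGF-β, and 0.20 and 0.22 for siR-2 in untreated and TGF-β cells. The fitted values with siR-1 were below 0 and those with siR-2 above 0 in every table.

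In the glucocorticoid and KLF15 list, of 20 other genes 11 rose and 5 fell with each siRNA in untreated CFs (39.9% and 49.3% of all genes were called), with median log2 fold changes of 0.25 and 0.47 against −0.02 for all genes with each. Under IL-17, 9 rose and 8 fell with siR-1 and 12 rose and 6 fell with siR-2. Under TGF-β, 8 rose and 4 fell with siR-1 and 9 rose and 4 fell with siR-2 (all genes 42.3% and 50.6% under IL-17, 23.1% and 29.9% under TGF-β). By the same rule, Mt2, a metallothionein, is named in untreated cells, from 32.5 CPM to 73.6 and 102 CPM, and under IL-17, from 69.2 CPM to 196 and 193 CPM. Under TGF-β it was Angptl4, an inhibitor of lipoprotein lipase, from 54.6 CPM to 122 and 132 CPM. Of the 19 clock genes, 5 rose and 8 fell with siR-1 and 6 rose and 7 fell with siR-2 in untreated CFs (39.9% and 49.3% of all genes were called). Hlf, a PAR bZIP clock output factor, is named in each table and rose from 0.541 CPM to 3.33 and 3.09 CPM in untreated cells. In hearts no gene of either list passed, and the median log2 fold changes were 0.13 and 0.10.

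Hpgds was low in CFs and passed in 1 comparison in the main fits. Its estimated counts in untreated cells were 82, 137 and 59 with Scrambled, 18, 58 and 40 for siR-1, and 40, 59 and 45 for siR-2. The lowest library stood at 18, which is 3 read pairs and the limit of detection used here, a limit that covers counting error only. The log2 fold change with siR-1 was −1.15 (standard error 0.426, adjusted p = 0.0409 in edgeR), and the groups overlapped, with the highest siR-1 library at 0.517 CPM and the lowest Scrambled library at 0.475 CPM. Mast cell markers summed to 6.84 to 7.39 CPM with Scrambled and 9.42 to 10.8 CPM with siR-1, and their part in the result was not tested. The call was lost in 6 of the 14 alternatives, among them the fit of these groups alone (adjusted p = 0.0568) and the fits without Scrambled replicate 1 or 2 or without siR-1 replicate 1 or 3, up to an adjusted p of 0.246. In the other 5 comparisons the log2 fold change lay between −0.89 and −0.12 and none passed in the main fits. With siR-2 it passed in untreated cells without Scrambled replicate 3 (−1.14, adjusted p = 0.0442 in edgeR). Under IL-17 with siR-2 it passed with a minimum of 10 counts in every library (−0.82, adjusted p = 0.0442 in edgeR). The log2 fold change was below 0 in all 6 comparisons, as it was in KO hearts, but the 6 share Scrambled libraries in pairs.

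The other genes of prostaglandin synthesis were called in both directions. Of 15 tested of 16, 5 rose and 4 fell with siR-1, and 8 rose and 3 fell with siR-2 in untreated CFs (39.9% and 49.3% of all genes were called). Under IL-17 the counts were 8 up and 3 down for siR-1 and 11 up and 2 down for siR-2. Under TGF-β, with 14 tested, 6 rose and 3 fell with siR-1, and 7 rose and 1 fell with siR-2 (all genes 42.3% and 50.6% under IL-17, 23.1% and 29.9% under TGF-β). Hpgd, which breaks prostaglandins down and is not to be confused with Hpgds, is named in untreated cells, from 1.46 CPM to 2.24 and 9.46 CPM (log2 fold changes 0.62 and 2.70, adjusted p = 0.000703 and 1.63e-11 in edgeR). Ptgs2, the inducible cyclooxygenase, is named under TGF-β, from 61 CPM to 91.1 and 128 CPM. In hearts none of the 14 tested passed, and their median log2 fold change was 0.04.

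Clk1 did not pass in CFs. It ranged from 60.2 to 71.1 CPM over all 27 libraries, its log2 fold changes against Scrambled lay between −0.01 and 0.07, and the lowest adjusted p of the 6 comparisons was 0.133 in edgeR. The standard errors were 0.0356 to 0.0455. Of the 22 other CLK and SR splicing genes, 6 rose and 5 fell with siR-1 and 10 rose and 6 fell with siR-2 in untreated CFs (39.9% and 49.3% of all genes were called). Under IL-17 they were 4 and 7, then 11 and 7, and under TGF-β, with 21 tested, 2 and 2, then 5 and 0 (all genes 42.3% and 50.6%, then 23.1% and 29.9%). The splicing factor Srsf9 is named in untreated and IL-17 cells (log2 fold changes 0.41 and 0.45 in the former), and Son under TGF-β (0.24 and 0.28).

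Stox1 and Fyb were low in CFs and did not pass in the main fits. Stox1 ranged from 0.355 to 1.01 CPM in untreated and IL-17 cells and from 1.30 to 2.08 CPM under TGF-β, and its log2 fold changes lay between −0.48 and 0.25 (lowest adjusted p 0.197 in edgeR). Its paralog Stox2 was lower with both siRNAs in untreated cells, at 41.3 CPM with Scrambled and 26.7 and 29.9 CPM with siR-1 and siR-2 (adjusted p = 2.41e-07 and 4.54e-06 in edgeR), and likewise under IL-17, but not under TGF-β. Fyb ranged from 0.268 to 5.02 CPM, and its log2 fold changes lay between −0.29 and 0.70 (lowest adjusted p 0.432 in edgeR). With siR-1 under IL-17 it passed when the compared groups were fitted alone (0.71, adjusted p = 0.023 in edgeR). With siR-1 under TGF-β it passed without Scrambled replicate 3, in the other direction (−0.58, adjusted p = 0.0324 in edgeR). Of the 23 other genes around Fyb, 20 were tested in untreated CFs, and 5 rose and 4 fell with siR-1 and 7 rose and 3 fell with siR-2 (39.9% and 49.3% of all genes were called). Among these the integrin subunit Itgal fell in untreated cells (log2 fold changes −1.50 and −1.62 from 0.522 CPM), the adaptor Skap2 rose under IL-17 (0.54 and 1.21), and the actin regulator Evl fell under TGF-β (−0.36 and −0.72). In hearts none of 21 passed, with a median of −0.04.

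Prn and Mapt were too low or too uneven in CFs to compare. Prn ran from 0 to 521 estimated counts, with 0, 0 and 521 in the siR-1 libraries under TGF-β, and none of its 6 differences passed (lowest adjusted p 0.507 in edgeR). Prnp, in contrast, stood at 202 CPM with Scrambled under IL-17 and at 214 and 236 CPM with the siRNAs, where it rose, and at 410 CPM under TGF-β and 332 and 375 CPM, where it fell. Mapt ran from 0 to 45 estimated counts, and 16, 18 and 12 in the untreated Scrambled libraries are at or under the limit of 18. With siR-1 it had 28, 45 and 38 estimated counts there (adjusted p = 0.0607 in edgeR, 0.00629 to 0.182 over all fits), and 3 alternatives called it. Markers of glia and neurons summed to 82.8 to 94.0 CPM with Scrambled and 125 to 132 CPM with siR-1, and their part in the result was not tested. Of the 23 microtubule genes tested, 7 rose and 3 fell with siR-1, while 8 rose and 8 fell with siR-2 in untreated CFs (39.9% and 49.3% of all genes were called). Stmn1, which destabilizes microtubules, fell in untreated and IL-17 cells (log2 fold changes −0.60 and −1.56 in the former), and Map2 under TGF-β (−0.93 and −1.47). In hearts none of 22 passed, with a median of 0.01.

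**Figure D4:**
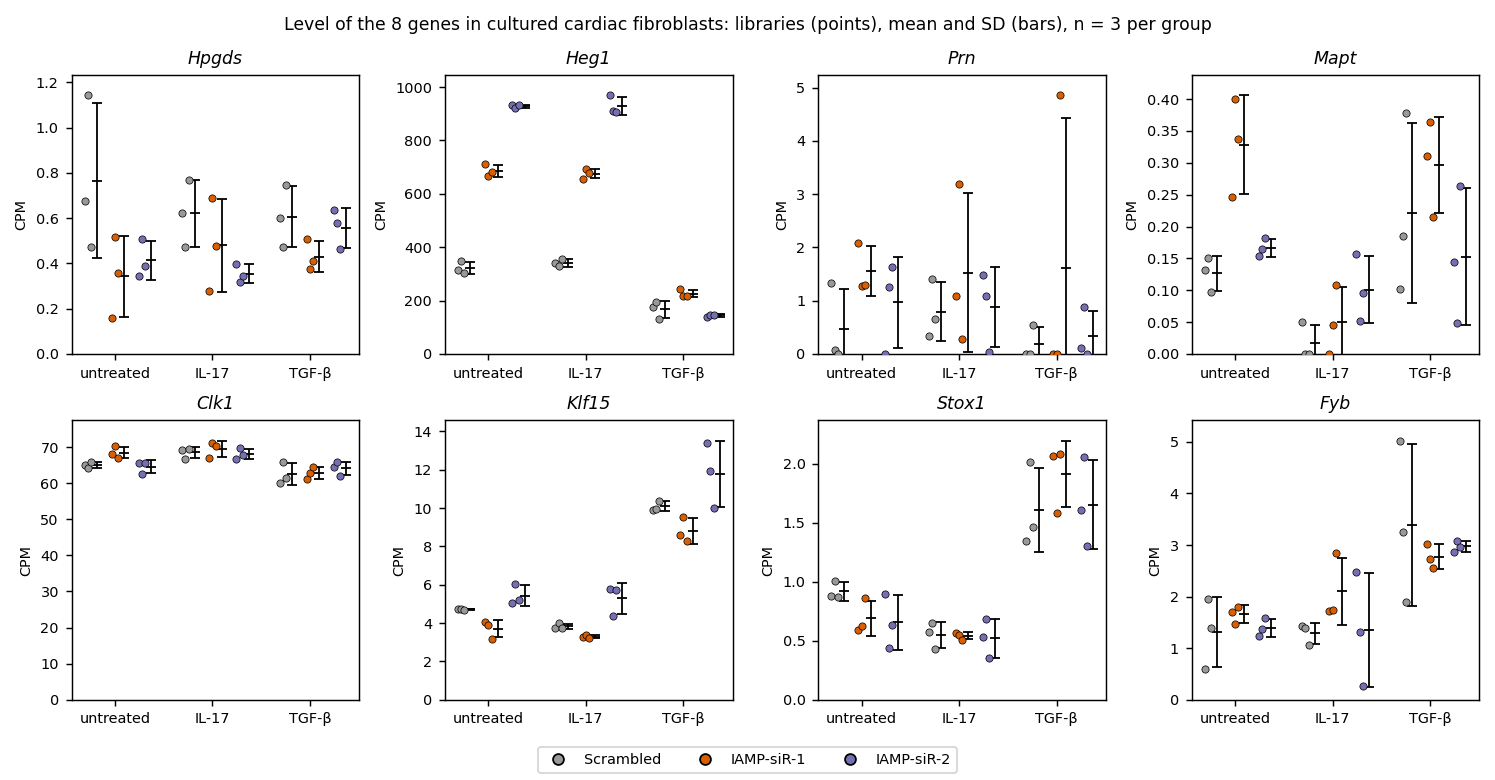
CPM (vertical axes, linear, from 0) of the 8 genes in CFs by stimulus, with Scrambled in grey, siR-1 in orange and siR-2 in purple, points for single libraries and bars for the mean and SD of 3. Heg1 rises stepwise from Scrambled over siR-1 to siR-2 in untreated and IL-17 cells, and Klf15 lies lower with siR-1 than with siR-2 in each table.

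**Figure D5:**
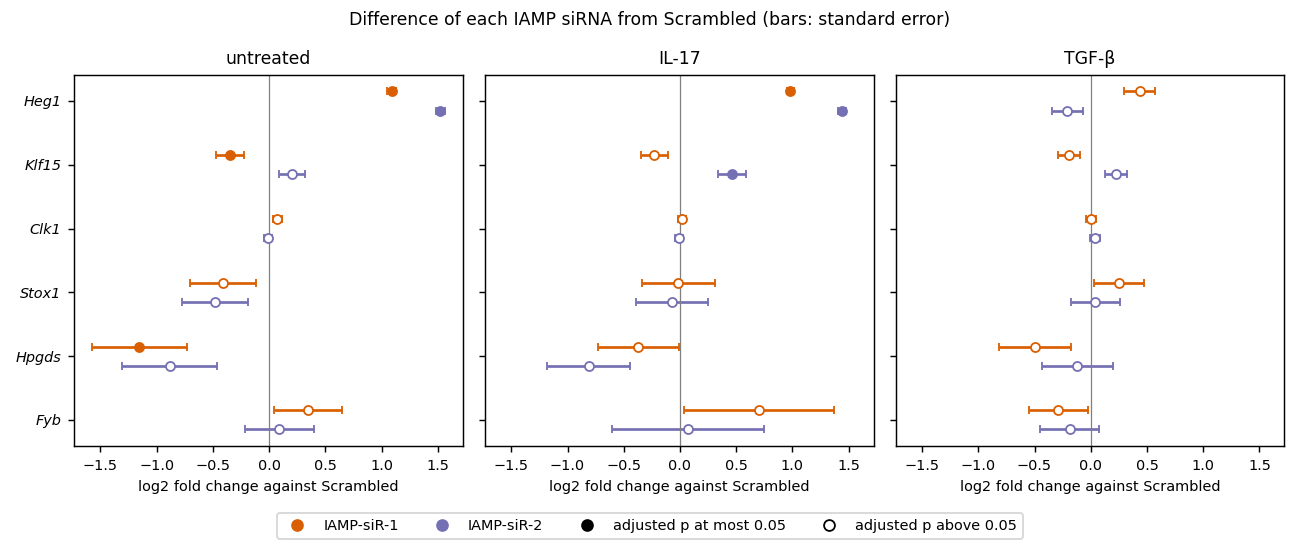
Log2 fold change against Scrambled (horizontal axes) with its standard error for 6 members in each CF table, siR-1 in orange and siR-2 in purple, filled where the adjusted p is at most 0.05. The filled points are Heg1 in untreated and IL-17 cells with both siRNAs, Klf15 with siR-1 in untreated and siR-2 in IL-17 cells, and Hpgds with siR-1 in untreated cells, while Prn and Mapt are left out because their counts were low or uneven.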

How the data were processed

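Total RNA of 8 mouse hearts and 27 CF libraries was enriched with oligo(dT) and sequenced as mRNA. According to the submitters' processing notes, reads went through cutadapt, HISAT2 and StringTie on GRCm38, and DESeq2 was used. The authors deposited 4 tables of 55487 genes. The heart table holds whole-number counts. The 3 CF tables deposited by the authors hold estimated counts from StringTie coverage, in steps of about 6 per read pair, which were rounded. The strand setting is not given in the sources used here. Each table was fitted alone with edgeR 4.0.16 in R 4.3.3 (TMM scaling, filterByExpr, quasi-likelihood test, Benjamini-Hochberg over all genes, adjusted p of at most 0.05), and effects between stimuli in a fit of 6 groups. CPM used TMM-scaled totals. The fits were tested on simulated data. Hearts carry letters a to d as names only. The limit of detection was 3 counts in hearts and 18 estimated counts in CFs. No 2 libraries of a group agreed within sampling noise. In hearts the lowest chi-square per degree of freedom was 4.91 (KO hearts b and d), where sampling noise gives about 1. In CFs the lowest was 10.58 (untreated siR-1 replicates 1 and 2), where estimated counts in steps of about 6 put sampling noise at about 6.

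The members and gene lists were chosen with earlier results of these data known. Named genes were the members, the IAMP gene, the 2 genes most like each member over the hearts, and, from each list and table, the gene with the largest mean absolute log2 fold change among those called with both siRNAs in 1 direction. Genes overlapping or next to members, and the motifs, were looked up after the values were seen. Alternatives were DESeq2 1.42.0, other scaling and filters, other units and call rules, the compared groups alone, a block and each library left out.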

Additional observations from a re-analysis of the deposited data

Results flagged for a closer look

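Among 18 groups of 4 hearts, 1 heart lay apart from the others beyond Dixon's critical value in 2 groups, where chance gives about 1 in 20. Both genes were picked for calls in single settings, and each passed the test without exactly that heart. This outcome was therefore fixed or favoured by the choice and is a description. Fyb stood at 2.22 CPM in KO heart a, against 28.4 to 29.9 CPM in the other 3. Mapt stood at 25.4 CPM in Het heart a, against 72.8 to 78.3 CPM in the other 3.

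The effect of the siRNAs on Heg1 differed between TGF-β and untreated CFs by −0.658 with siR-1 and by −1.75 with siR-2 on the log2 scale, in edgeR's test of the difference (adjusted p = 0.00597 and 7.73e-07). Stimulus and table cannot be told apart.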

How the results depend on the processing

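Of 227 counts under alternatives, 203 stayed within 1.5 times. Most count members or genes past the test, but some count members whose heart groups did not overlap. That number stayed at 8 with each heart left out, and the members were picked on the heart comparison. Its outcome was thus fixed or favoured by the choice, and nothing is read from it. Of 1678 values of single genes, 1641 were labelled the same. In CFs this means the same side of the threshold, with direction checked only for values called in the main fit. In hearts it means the same direction and a shift below the larger SD of the genotypes, whatever the adjusted p. In CFs 21 values no longer passed and 13 newly passed, and in hearts 3 moved or reversed. Heart calls of members under alternatives are not among the 13. Summed with Prnp, Prn had a log2 fold change of 0.0216 in hearts, but that sum consists mostly of Prnp counts. With a limit on the fold change, the members past the test became 0 in untreated siR-2 against siR-1 (from 2), 1 under IL-17 with siR-2 and in siR-2 against siR-1 (from 2 each), 1 under TGF-β in siR-2 against siR-1 (from 2), and 0 in the siR-1 difference between TGF-β and untreated cells (from 1). The fold limit also removed Klf15 in untreated cells with siR-1. With the compared groups alone there were 2 under IL-17 with siR-1 (from 1). With DESeq2 there was 1 under TGF-β with siR-1 (from 0), and 5 genes in hearts (from 0). With each library left out, the members past the test ran from 1 to 3 with siR-1 and from 1 to 2 with siR-2 in untreated cells, and from 0 to 2 with siR-1, 0 to 1 with siR-2 and 1 to 2 in siR-2 against siR-1 under TGF-β. In hearts 0 to 1 genes were called. The causes were not tested beyond the libraries named. A minimum of 10 counts in every library removed Prn from each CF table and Mapt from those under IL-17 and TGF-β, and removed Hpgds and Stox1 from the heart table, so no value was had there.

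With the replicate number as a block in CFs, 117 of 117 results were labelled the same. For single genes this means the same side of the threshold, with direction checked only for values called in the main fit. For counts of members past the test it means within 1.5 times. Libraries of the same number did not deviate together (correlations −0.102 to 0.0592 untreated, −0.0599 to 0.0512 under IL-17 and −0.165 to 0.0419 under TGF-β), so the numbers are not taken as pairs. No paired analysis was possible because the columns of the heart table carry no replicate numbers, and the planned block for hearts was not run.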
